A study of Mus musculus with 13 samples.

Results

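The 9 genes described here act when the sperm meets the egg and in the calcium signal that follows. They were chosen by name, and their Ensembl identifiers were found in the count files by mapping them to mouse symbols, so that all 9 of 9 were found among the 22442 genes of the Ribo-seq libraries and all 9 among the 21898 genes of the RNA pull-down libraries. Izumo1r, Cd9 and Cd81 encode proteins of the egg surface, and Astl encodes ovastacin, a protease stored in the cortical granules. Itpr1 and Atp2a2 release and refill the calcium store of the endoplasmic reticulum, Trpm7 and Cacna1h are channels of the plasma membrane, and Camk2g encodes the kinase that reads the calcium signal.

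Fertilization in the mouse begins when the sperm protein IZUMO1 binds its egg receptor JUNO, the product of Izumo1r, and fusion of both membranes needs the tetraspanin CD9. The sperm then sets off repeated calcium releases through the receptor ITPR1, and calcium entering across the plasma membrane keeps them going. CAMK2G carries the signal to the cell cycle and ends the arrest at metaphase II, while cortical granules empty ovastacin, which cleaves ZP2 and closes the zona pellucida to further sperm. The egg has to hold these products by the time it is ovulated, and much of what it translates on the way from the germinal vesicle (GV) stage to metaphase II (MII) comes from mRNA stored during growth.

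Ribo-seq sequences the stretches of mRNA that lie inside a ribosome when RNase I digests the rest (ribosome-protected fragments, RPFs), and the counts used here are those on the coding sequence (CDS) of each gene. The 11 Ribo-seq libraries held about 100 oocytes each and came from 3 WT GV, 3 Nat10-ZcKO GV, 2 WT MII and 3 Nat10-ZcKO MII samples, while an anti-ac4C and an IgG pull-down, 1 library each, were made from about 2000 WT GV oocytes. All mice were C57BL/6J females of 21 days; GV oocytes were taken after PMSG, and MII oocytes were taken from the oviduct after PMSG and hCG and freed of cumulus cells with hyaluronidase. Nat10-ZcKO mice carry Zp3-Cre and a Nat10 genotype given as lox/-, a lox allele over a null one. Zp3-Cre acts in the growing oocyte, and the study's staining found NAT10 lost from oocytes while granulosa cells kept it. Nat10 encodes the enzyme that acetylates cytidine in RNA to ac4C. The design text of the series also names tamoxifen, given for 3 days, which the study's methods mention for fibroblast lines and not for these oocytes, and whether any of these oocytes received it is not given in the sources used here. The labels do not say which libraries came from separate animals, so that p-values measure the spread between these libraries, which may be technical.

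Of the 11 libraries, 10 held between 42360 and 279464 counts, and WT MII replicate 2 held 4815, so that a count of 0 there allows up to 623 CPM (counts scaled to the library total), against 10.7 to 70.8 CPM in the others (3 counts; counting error only). The 12 oocyte markers took 5.65% to 11.03% of the counts in the 3 WT GV libraries and Nat10-ZcKO GV replicate 3, 1.51% in Nat10-ZcKO GV replicate 2 and 0.0142% in Nat10-ZcKO GV replicate 1, where 9 of the 12 were at 0. The same 2 Nat10-ZcKO GV libraries held 0.340% and 1.58% of their counts on 16 adipocyte markers, of which 4 and 0 were at 0, against 0.0347% at most in the other 9. The 16 granulosa or cumulus markers took 0.221% to 1.18% in 10 libraries, 1.18% being that of Nat10-ZcKO GV replicate 1, and 10 smooth muscle markers took 0.460% there and 0.0111% to 0.128% in the others. In the MII libraries other than WT MII replicate 2 the oocyte markers took 1.09% to 1.30%. These 3, of which 2 are Nat10-ZcKO GV (replicates 1 and 2) and 1 is WT MII (replicate 2), stand apart, and the comparisons of the 9 genes are given over all libraries and, where a fit could be made, without them. Nat10 itself had 1 to 11 counts in the WT and 1 to 6 in the Nat10-ZcKO libraries, too few to check the labels with. In oocytes pooled this way, fewer oocytes in a library and less RPF per oocyte cannot be told apart.

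**Figure D1:**
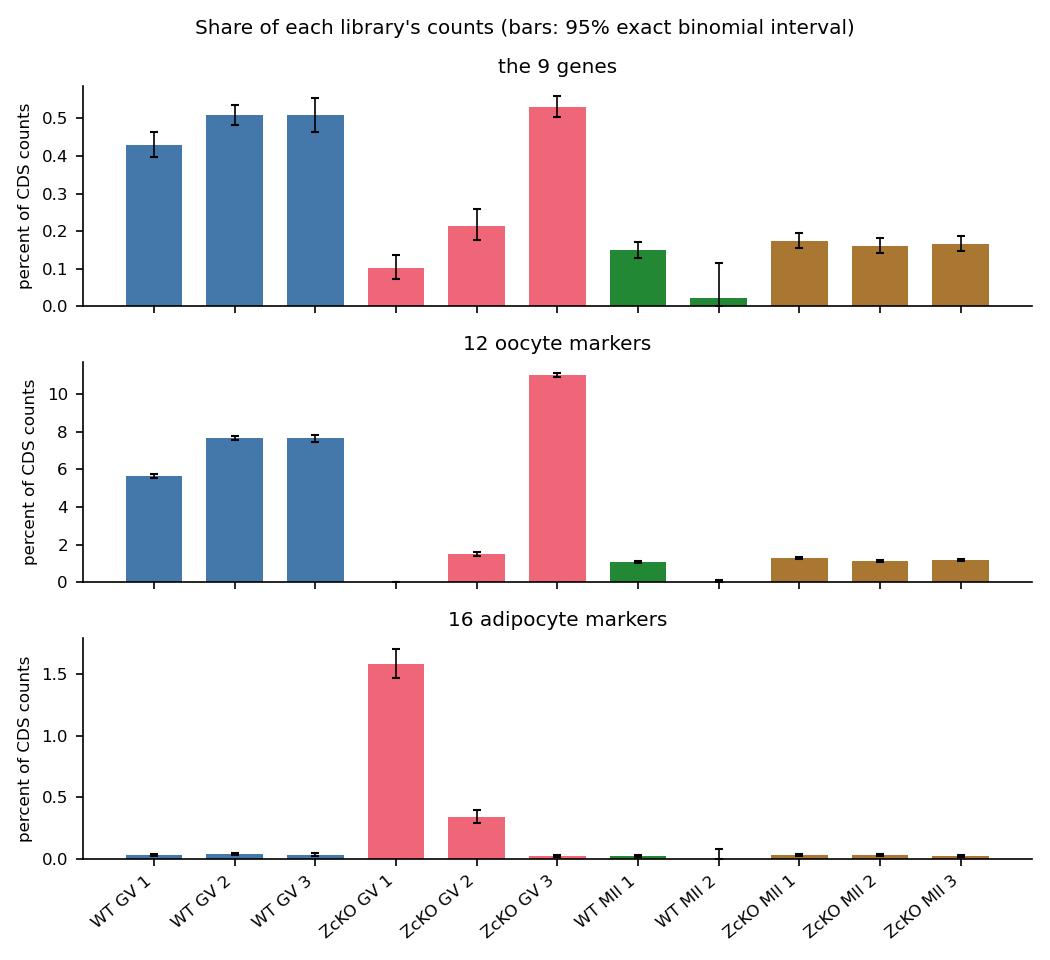
Share of all CDS counts (percent) on the 9 genes, on 12 oocyte markers and on 16 adipocyte markers in each of the 11 libraries, with exact 95% binomial intervals. The 9 genes hold 0.430% to 0.531% in the GV libraries with oocyte markers above 5%, and 0.149% to 0.174% in the 4 deeper MII libraries; Nat10-ZcKO GV replicates 1 and 2 have few oocyte marker counts and most of the adipocyte marker counts.

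Together the 9 genes took 0.482% ± 0.0455 of the counts in WT GV (SD, n = 3) and 0.167% ± 0.00662 in Nat10-ZcKO MII (SD, n = 3). The 3 Nat10-ZcKO GV libraries ranged from 0.102% (exact 95% interval 0.0735% to 0.137%) in replicate 1 over 0.215% (0.177% to 0.258%) in replicate 2 to 0.531% (0.504% to 0.559%) in replicate 3, and the 2 WT MII libraries held 0.149% (0.129% to 0.171%) and 0.0208% (0.000526% to 0.116%). Most of this was Astl, which made up 61.0% to 65.4% of the 9 genes' counts in WT GV, 72.0% in Nat10-ZcKO GV replicate 3 and 54.7% to 69.4% in the 4 deeper MII libraries. Astl was 16.2% of them in Nat10-ZcKO GV replicate 2 and 0 in replicate 1, where Atp2a2 made up 41.9%.

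Between genes, levels were compared per CDS length (TPM), in WT GV, where all 3 libraries are rich in oocyte markers. Astl was highest at 3015 ± 398 TPM (SD, n = 3), the 28th highest of all genes by mean TPM. Izumo1r followed at 943 ± 130 TPM, Cd9 at 433 ± 73.7 TPM, Cd81 at 159 ± 47.5 TPM and Itpr1 at 76.8 ± 5.87 TPM, each with a range over the 3 libraries that was apart from the next. Camk2g at 55.5 ± 18.8 TPM and Atp2a2 at 45.8 ± 17.5 TPM overlapped, as did Cacna1h at 9.29 ± 3.54 TPM and Trpm7 at 7.65 ± 0.481 TPM at the low end. The surface and granule genes thus held the upper 4 places and the calcium genes the lower 5 per length. By CPM, which does not correct for length, Itpr1 with its CDS of 8296 bases moved to place 3 and Atp2a2 to place 5. Cd81 was then at place 6, so this split holds per length only. With the longest CDS in place of the union of all CDS segments Izumo1r came to 1180 TPM, in the same place.

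**Figure D2:**
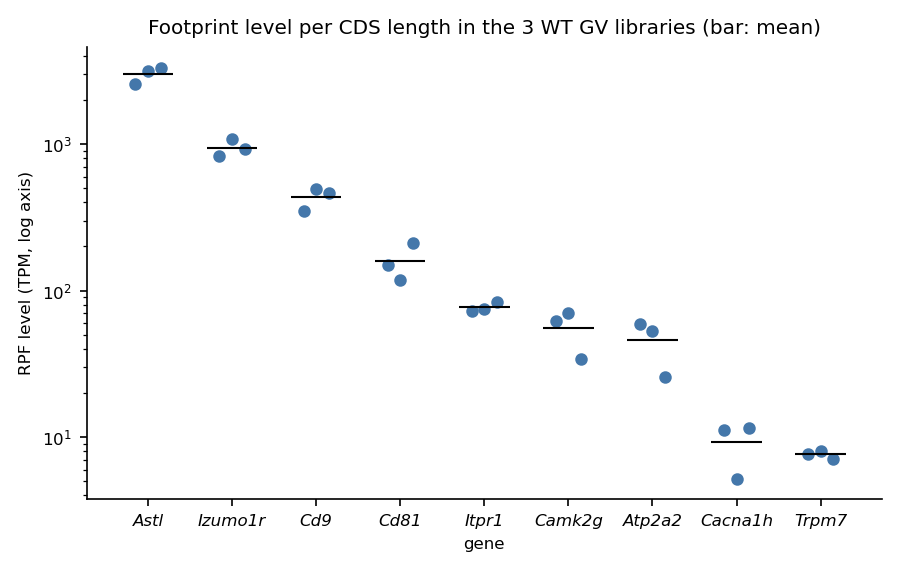
RPF level of the 9 genes per CDS length in the 3 WT GV libraries (TPM, log axis; circles are libraries, bars are means). Levels run from 3015 TPM for Astl to 7.65 TPM for Trpm7, and the circles of Camk2g and Atp2a2, and of Cacna1h and Trpm7, overlap.

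The ends of the mRNAs are shown because, in the maturing oocyte, a stored mRNA gains its poly(A) tail, and with it translation, through a cytoplasmic polyadenylation element (TTTTAT or TTTTAAT) close to the polyadenylation signal (AATAAA or ATTAAA). In the last 100 bases of the GENCODE M21 transcript chosen for each gene (GRCm38, sense strand only, overlapping matches counted), all 9 genes held a polyadenylation signal and 1 of 9, Atp2a2, held the element. Of 19641 genes with a 3' UTR of at least 100 bases, 78.1% held the signal and 17.7% the element. A match is a description of the letters and not of a working site. The next lines show genes that were lower at MII in WT once WT MII replicate 2 was left out (below). Of these, Izumo1r and Cd9 passed the filter on low counts through GV libraries only. They are lower at MII by the way they were kept. The signals are in capitals:
Astl, chr2:127357616-127357645, plus strand: ggaaaaggtagaAATAAAgttgggtgtttg
Izumo1r, chr9:14900027-14900056, minus strand: catggtaccttcAATAAAaggctaggaaac
Cd9, chr6:125460268-125460297, minus strand: aatttgatacatAATAAAagattataacag
Itpr1, chr6:108551078-108551107, plus strand: ctaaaaatatttAATAAAcgatgcagaatc

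The element itself, in capitals, is shown for Atp2a2 and for 3 genes of the same pathway that were higher at MII (below), Plat, Wee2 and Slc39a10. Of these 3, Slc39a10 passed the filter on low counts through MII libraries only, so it is higher by the way it was kept. The element began 90 bases from the 3' end in Atp2a2, 89 in Plat, 18 in Wee2, which holds 2 in the window, and 59 in Slc39a10.
Atp2a2, chr5:122456412-122456441, minus strand: atgtctaatgtaTTTTATtgtaacagacat
Plat, chr8:22782745-22782774, plus strand: gtatatttataTTTTAATctattttagttt
Wee2, chr6:40466784-40466813, plus strand: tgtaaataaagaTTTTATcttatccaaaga
Slc39a10, chr1:46807585-46807614, minus strand: agtggtgtgtcaTTTTATatatgttcctaa

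The main question of the comparison of stages is what is translated less or more once the oocyte has matured. On the egg surface, Izumo1r (ENSMUSG00000031933.17, chromosome 9, 14885814 to 14903949) stood at 605, 787 and 666 CPM in the WT GV libraries and at 37.1 and 0 CPM in WT MII. In Nat10-ZcKO it stood at 0, 329 and 574 CPM at GV and at 85.1, 177 and 68.9 CPM at MII. The WT values did not overlap between stages, but the 0 in WT MII replicate 2 allows up to 623 CPM, above the lowest WT GV value. That separation thus rests on WT MII replicate 1, with 5 counts, and the share of all genes apart in this way was not counted. The Nat10-ZcKO stages overlapped through the GV library at 0. Over all WT libraries the log2 change from GV to MII was -4.25 ± 1.99 (± SE, edgeR's quasi-likelihood test, Benjamini-Hochberg adjusted p = 0.20). Without WT MII replicate 2 Izumo1r passed the filter on low counts through GV libraries only, with 5 counts at MII. Such a gene is lower at MII by the way it was kept, so its test is not given. The log2 change was then -4.11 ± 0.46, a level 17.2-fold lower at MII. In Nat10-ZcKO it was -1.97 ± 1.03 (adjusted p = 0.17) over all libraries and -2.70 ± 0.49 (adjusted p = 9.37e-07) without GV replicates 1 and 2, a fit with 1 GV library, which is assumed to vary like the MII libraries.

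Cd9 (ENSMUSG00000030342.8, chromosome 6, 125460266 to 125494791), the tetraspanin needed for fusion, had 186, 258 and 239 CPM in WT GV and 44.5 and 0 CPM in WT MII. In Nat10-ZcKO it had 0, 77.4 and 278 CPM at GV and 53.2, 27.3 and 18.8 CPM at MII. Again the WT values were apart, which rests on MII replicate 1 with 6 counts, since the 0 in replicate 2 allows up to 623 CPM. The Nat10-ZcKO stages overlapped. The share of all genes apart in WT was not counted. The log2 change in WT was -2.29 ± 1.30 (adjusted p = 0.27) over all libraries and -2.26 ± 0.50 without WT MII replicate 2. In Nat10-ZcKO Cd9 was under the filter on low counts in the fit of all libraries. Without GV replicates 1 and 2 its log2 change was -3.35 ± 0.61. In both fits that leave libraries out, Cd9 passed the filter through GV libraries only. Such a gene is lower at MII by the way it was kept, so these tests are not given.

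Cd81 (ENSMUSG00000037706.17, chromosome 7, 143052739 to 143067934), is a related tetraspanin with a supporting part in fusion. It had 82.5, 64.4 and 114 CPM in WT GV, 119 and 0 CPM in WT MII, 165, 271 and 32.5 CPM in Nat10-ZcKO GV and 63.8, 20.4 and 0 CPM in Nat10-ZcKO MII. All these rest on 0 to 18 counts a library, and the stages overlapped in both genotypes. The log2 change in WT was 0.56 ± 0.80 (adjusted p = 0.68), and 0.60 ± 0.53 (adjusted p = 0.35) without WT MII replicate 2. In Nat10-ZcKO Cd81 was under the filter on low counts over all libraries, and stood at -0.57 ± 1.57 without GV replicates 1 and 2. There it passed the filter through MII libraries only, so its test is not given.

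Astl (ENSMUSG00000050468.12, chromosome 2, 127338639 to 127357651) was the gene with most counts. It had 2619, 3192 and 3328 CPM in WT GV and 905 and 0 CPM in WT MII. In Nat10-ZcKO it had 0, 348 and 3821 CPM at GV and 1128, 879 and 1152 CPM at MII. The 4 deeper MII libraries, of both genotypes, lay close together and below each of the 4 GV libraries rich in oocyte markers. The log2 change in WT was -2.22 ± 2.10 (adjusted p = 0.51) over all libraries and -1.66 ± 0.28 (adjusted p = 0.000168) without WT MII replicate 2, a level 3.17-fold lower. In Nat10-ZcKO it was -1.01 ± 1.37 (adjusted p = 0.59) over all libraries and -2.15 ± 0.48 (adjusted p = 6.30e-05) without GV replicates 1 and 2. It turned to 2.84 (adjusted p = 0.047) when GV replicate 3 was left out, which keeps only the GV libraries with few oocyte marker counts, and to 1.30 ± 1.67 (adjusted p = 0.61) with the replicate number as a block.

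Itpr1 (ENSMUSG00000030102.11, chromosome 6, 108213096 to 108551109), the receptor through which the store releases calcium, had 467, 483 and 530 CPM in WT GV, 171 and 0 CPM in WT MII, 354, 155 and 346 CPM in Nat10-ZcKO GV and 245, 218 and 194 CPM in Nat10-ZcKO MII. Unlike Astl, Izumo1r and Cd9, it was read in Nat10-ZcKO GV replicate 1, with 15 counts. The WT values were apart, which rests on MII replicate 1 with 23 counts, since the 0 in replicate 2 allows up to 623 CPM. The share of all genes apart in WT was not counted. The Nat10-ZcKO stages overlapped through GV replicate 2. The log2 change in WT was -1.82 ± 1.59 (adjusted p = 0.47) over all libraries and -1.44 ± 0.35 (adjusted p = 0.0037) without WT MII replicate 2. In Nat10-ZcKO it was -0.67 ± 0.65 (adjusted p = 0.45) and, without GV replicates 1 and 2, -0.97 ± 0.50 (adjusted p = 0.11).

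Atp2a2 (ENSMUSG00000029467.15, chromosome 5, 122453513 to 122502225) encodes SERCA2, which pumps calcium back into the store. It had 144, 129 and 62.4 CPM in WT GV, 156 and 208 CPM in WT MII and 138, 184 and 175 CPM in Nat10-ZcKO MII, the value of 208 CPM being a single count. Nat10-ZcKO GV replicates 1 and 2 held 425 and 600 CPM, above every other library, and replicate 3 held 119 CPM. The log2 change from GV to MII was 0.48 ± 0.94 (adjusted p = 0.77) in WT and -1.23 ± 0.68 (adjusted p = 0.20) in Nat10-ZcKO, and 0.47 ± 0.48 (adjusted p = 0.42) and 0.18 ± 0.59 (adjusted p = 0.83) without the libraries that stand apart.

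The 2 channels of the plasma membrane were read little. Trpm7 (ENSMUSG00000027365.14, chromosome 2, 126791565 to 126876230), a cation channel with a kinase domain, had 34.4, 35.8 and 31.2 CPM in WT GV, 22.2 and 0 CPM in WT MII, 0, 19.3 and 75.8 CPM in Nat10-ZcKO GV and 0, 0 and 6.26 CPM in Nat10-ZcKO MII. The 3 Nat10-ZcKO MII libraries held 1 count in all, against 21 counts in Nat10-ZcKO GV replicate 3. Trpm7 was under the filter on low counts in Nat10-ZcKO over all libraries and passed it without GV replicates 1 and 2 through that 1 GV library alone. A gene kept that way had to differ, so its test is not given.

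Cacna1h (ENSMUSG00000024112.16, chromosome 17, 25374285 to 25433783), the pore of a T-type calcium channel, had 61.9, 28.6 and 62.4 CPM in WT GV and no count in both WT MII libraries, which allows up to 22.2 and 623 CPM there. It had 0, 116 and 28.9 CPM in Nat10-ZcKO GV and 0, 6.82 and 31.3 CPM in Nat10-ZcKO MII. The groups overlapped in Nat10-ZcKO, and the gene was under the filter on low counts in both comparisons of stages.

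Camk2g (ENSMUSG00000021820.18, chromosome 14, 20734875 to 20794088), the kinase that reads the calcium signal, had 96.2, 107 and 52.0 CPM in WT GV, 37.1 and 0 CPM in WT MII, 70.8, 232 and 32.5 CPM in Nat10-ZcKO GV and 26.6, 95.4 and 12.5 CPM in Nat10-ZcKO MII. Its log2 change in WT was -1.10 ± 0.93 (adjusted p = 0.45), and -1.19 ± 0.75 without WT MII replicate 2. In Nat10-ZcKO it was -1.34 ± 0.88 (adjusted p = 0.27), and 0.11 ± 1.21 without GV replicates 1 and 2. In the fits that leave libraries out, Camk2g passed the filter through GV libraries only in WT. In Nat10-ZcKO it passed through MII libraries only, so these tests are not given.

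**Figure D3:**
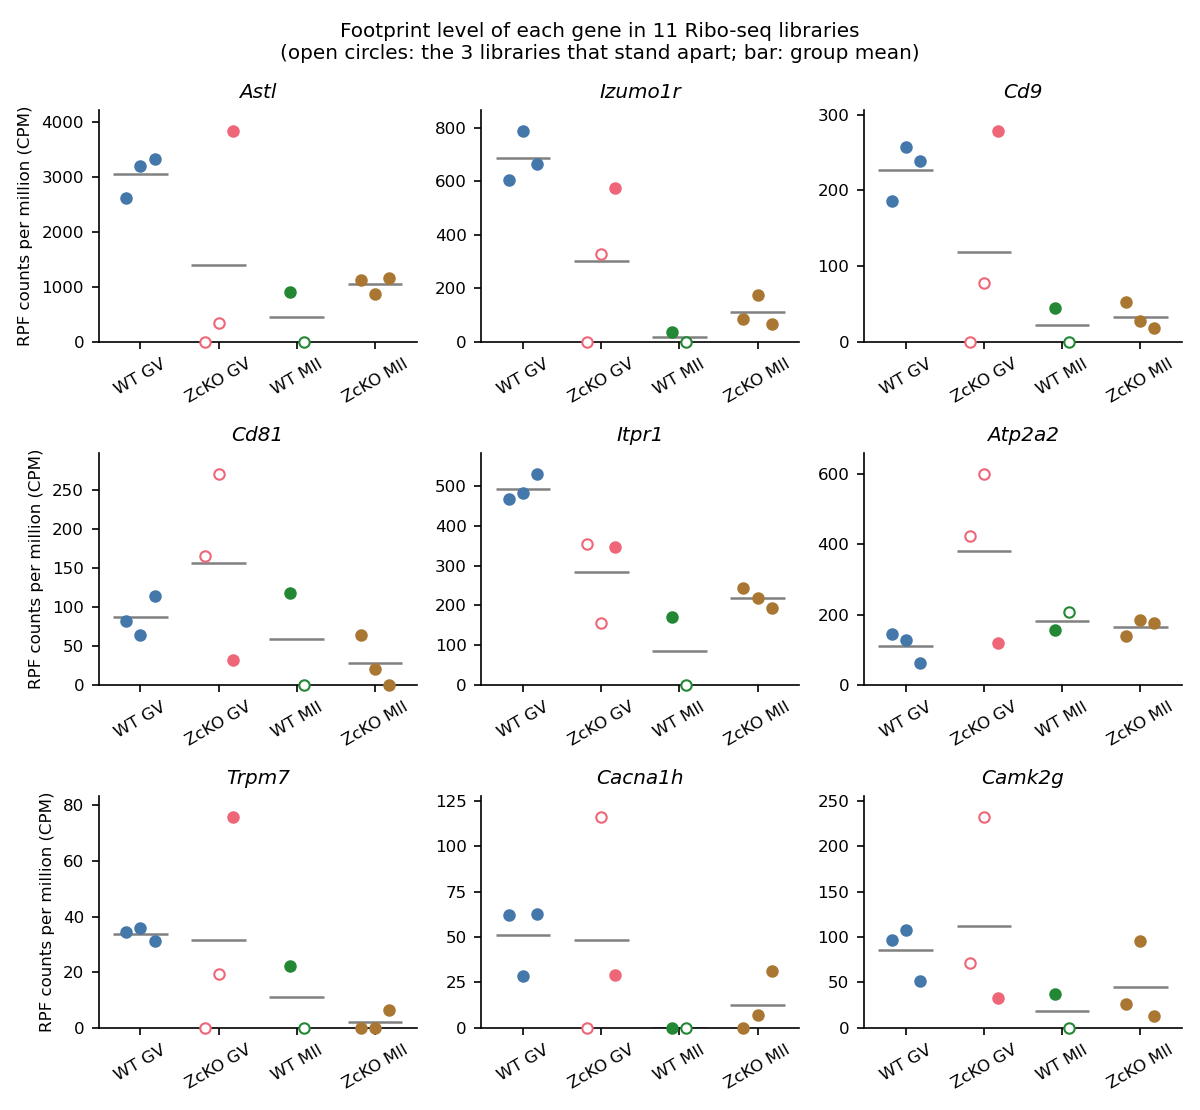
RPF level (CPM, linear axes from 0) of each of the 9 genes in the 11 libraries, by group; open circles are the 3 libraries that stand apart and bars are group means. Astl, Izumo1r, Cd9 and Itpr1 are higher in the filled GV circles than in the filled MII circles, and Atp2a2 is highest in the open circles of Nat10-ZcKO GV, at 425 and 600 CPM.

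Counted over the 9 genes, none of the 7 tested passed an adjusted p of 0.05 over all WT libraries, where 0.293% of 2045 genes did, and 1 of the 7, Izumo1r, had an unadjusted p under 0.05. DESeq2 called 4 of the 7 on the same libraries, Izumo1r, Cd9, Astl and Itpr1, all lower. With edgeR scaled to library size only, Izumo1r, Cd9 and Itpr1 were called. Izumo1r and Cd9 had 37.1 and 44.5 CPM in WT MII replicate 1 and 0 in replicate 2. In these fits over all WT libraries both thus passed the filter through GV libraries only. Their lower level at MII follows from the way they were kept, and their calls are no separate result. Over all genes the median log2 change was -0.67 in edgeR, -1.58 in DESeq2 and -0.63 with library size only, and the calls were 6 higher and 0 lower, 47 higher and 844 lower, and 343 higher and 654 lower. The median log2 change of the 7 was -1.82 in edgeR. Without WT MII replicate 2 the same 4 were called lower, beside 23.9% of 3264 genes, and none of the 7 higher, beside 20.9%. Izumo1r, Cd9 and Camk2g passed the filter through GV libraries only, with 5, 6 and 5 counts at MII, and such a gene is lower at MII by the way it was kept. Of the 4 genes that passed at both stages, 2 were called lower, Astl and Itpr1. That fit has 1 MII library, which is assumed to vary like the GV libraries.

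In Nat10-ZcKO none of the 5 genes tested over all libraries was called by edgeR or DESeq2, and none had an unadjusted p under 0.05, beside 16.5% of 2225 genes called. Without GV replicates 1 and 2, 8 were tested, of which Cd9 and Trpm7 passed the filter through the GV library only and Cd81 and Camk2g through MII libraries only. Of the 4 that passed at both stages, Izumo1r and Astl were called lower, beside 19.6% of 3741 genes, and none higher, beside 19.0%. The single GV library of that fit, which is assumed to vary like the MII libraries, is the one with the largest share of oocyte markers, 11.03%, and the share of the 12 oocyte markers was lower in the same libraries as these genes, at 1.30% or less at MII against 5.65% or more at GV. The part of that share in the result was not tested.

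Some genes of the same pathway were higher at MII. Of 47 further genes that act on the egg surface, in the cortical granules, in calcium handling or in the exit from metaphase II, 18 were tested in Nat10-ZcKO over all libraries, of which 5 were called higher at MII, beside 9.98% of 2225 genes, and none lower, beside 6.56%. These were Plat, Mos, Wee2, Slc39a10 and Fbxo43, with log2 changes of 3.67 to 6.02. Each lost its call when any of the 3 Nat10-ZcKO MII replicates was left out, when no gene was called at all, and Wee2 also without Nat10-ZcKO GV replicate 2. Slc39a10 and Fbxo43, with at most 58.0 and 7.22 CPM in Nat10-ZcKO GV, passed the filter of this fit through MII libraries only. Such genes are higher at MII by the way they were kept. In WT none of 15 was called over all libraries by edgeR, beside 0.293% of 2045 genes. DESeq2 called 2 of the 15 higher and 5 lower, beside 47 higher and 844 lower of the 2045 genes. Without the libraries that stand apart 7 were called higher in each genotype, of 21 tested in WT, beside 20.9% of all genes, and of 24 in Nat10-ZcKO, beside 19.0%. The 7 were Plat, Mos, Wee2, Slc39a10, Fbxo43, Marcks and Itga9 in both. In both genotypes 3 were called lower, Calr, Pdia3 and Cd55, beside 23.9% and 19.6%. Of the 7, Mos, Fbxo43, Slc39a10 and Itga9 passed the filter through MII libraries only in both genotypes, and of the 3, Cd55 passed through GV libraries only in WT.

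Plat encodes tissue plasminogen activator, which is released with the cortical granules. It went from 61.9, 82.3 and 83.2 CPM in WT GV to 17354 and 2077 CPM in WT MII, and from 94.4, 541 and 130 CPM in Nat10-ZcKO GV to 19791, 16234 and 19907 CPM in Nat10-ZcKO MII. The stages were apart in both genotypes, also in the library of 4815 counts, where Plat had 10 counts. Without the libraries that stand apart its log2 change was 7.90 ± 0.27 in WT (adjusted p = 2.36e-12) and 6.87 ± 0.98 in Nat10-ZcKO (adjusted p = 2.11e-10).

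Of the genes of the metaphase II arrest, Mos, Wee2 and Fbxo43 were among the 7, while Camk2g was not called. Ppp3r1, a subunit of calcineurin, was under the filter in WT. It stood at 0.45 in Nat10-ZcKO, where it passed the filter through MII libraries only. Mos, the kinase of that arrest, had 10.4 to 39.4 CPM in WT GV and 1283 CPM in WT MII replicate 1, with 545 to 1346 CPM in Nat10-ZcKO MII. Wee2, the kinase that helps the egg leave the arrest after the calcium signal, had 125 to 172 CPM in WT GV and 690 CPM in WT MII replicate 1. Fbxo43, whose product EMI2 is destroyed after CAMK2G acts on it, had 10.4 to 41.2 CPM in WT GV and 193 CPM in WT MII replicate 1. Slc39a10, which imports zinc, had 32.2 to 41.6 CPM in WT GV and 386 CPM in WT MII replicate 1.

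The 3 called lower are a pair of folding proteins of the endoplasmic reticulum and a surface protein. Calr, which binds calcium in the store, had 2846 to 3890 CPM in WT GV and 808 CPM in WT MII replicate 1, and its log2 change without the libraries that stand apart was -2.004 ± 0.29 in WT (adjusted p = 3.99e-05) and -1.94 ± 0.47 in Nat10-ZcKO (adjusted p = 0.000264). Pdia3, a partner of Calr in folding, had log2 changes of -1.39 ± 0.31 (adjusted p = 0.0019) and -2.25 ± 0.47 (adjusted p = 2.07e-05). Canx, a further chaperone of the endoplasmic reticulum, was not called, at -0.21 ± 0.32 (adjusted p = 0.60) and -0.04 ± 0.50 (adjusted p = 0.96). Cd55, a complement regulator on the egg surface, had log2 changes of -2.03 ± 0.46 and -1.69 ± 0.50. In WT it passed the filter through GV libraries only, with 8 counts at MII. Its lower level there follows from the way it was kept. Of the 7 genes called higher, Plat, Wee2 and Slc39a10 held the polyadenylation element in the last 100 bases and Mos, Fbxo43, Marcks and Itga9 did not, and of the 3 called lower, Pdia3 held it.

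**Figure D4:**
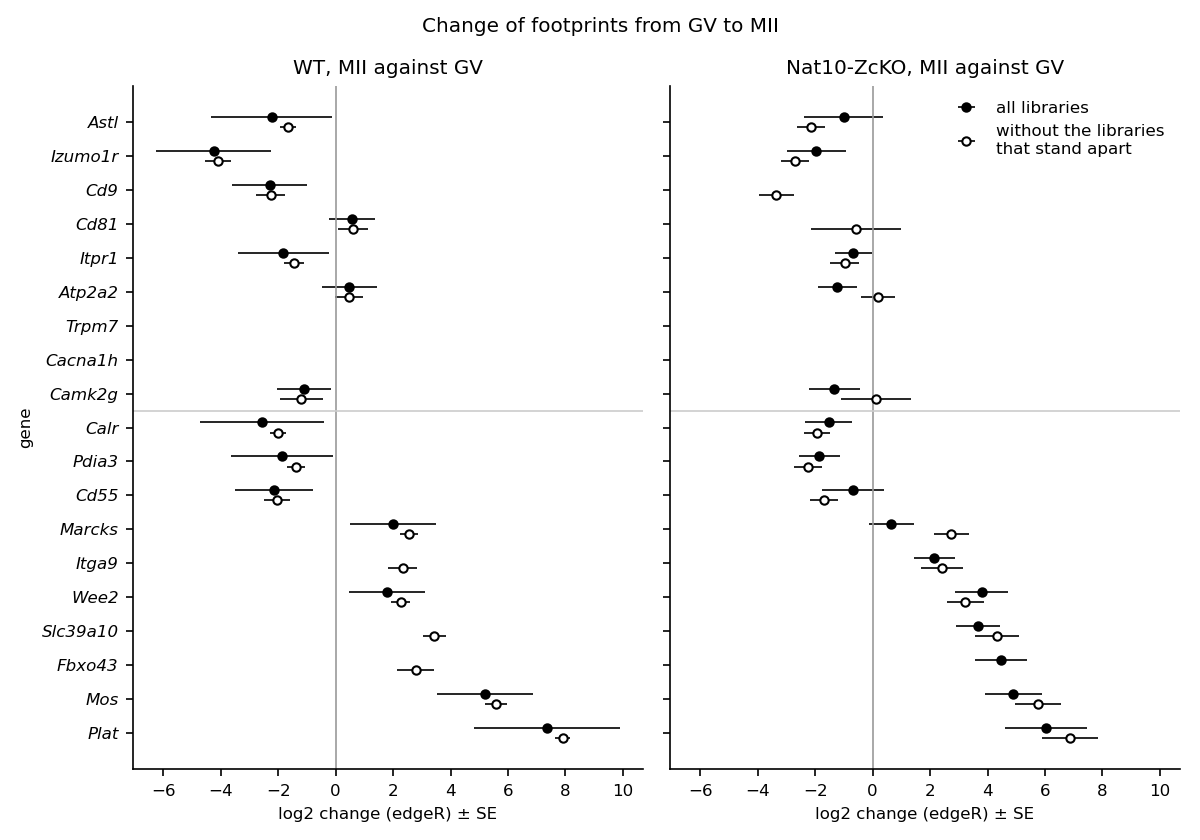
Log2 change of RPFs from GV to MII (edgeR, ± SE) in WT and Nat10-ZcKO for the 9 genes (upper rows) and the 10 further genes called in a fit (lower rows), over all libraries (filled) and without the libraries that stand apart (open); a missing point is a gene under the filter on low counts or, for open points, with fewer than 3 counts at a stage. The open points of Izumo1r, Cd9 and Astl lie left of 0 in both panels, at -1.66 or lower. Those of Plat, Mos, Wee2, Slc39a10, Fbxo43, Marcks and Itga9 lie right of 0, at 2.27 or higher. Of these, Izumo1r in WT and Cd9 in both genotypes passed the filter through GV libraries only. Mos, Fbxo43, Slc39a10 and Itga9 passed it through MII libraries only in both genotypes. The sides of those open points follow from the way the genes were kept.

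Between genotypes at MII, the stage at which these products are used, none of the 4 of the 9 genes that could be tested was called by edgeR or DESeq2, and none had an unadjusted p under 0.05, where 0.191% of 2097 genes were called. The log2 difference, Nat10-ZcKO against WT, was 1.55 ± 1.076 for Izumo1r, 0.90 ± 1.76 for Astl, 0.54 ± 0.97 for Itpr1 and 0.09 ± 0.96 for Atp2a2, each with an adjusted p of 0.997. Without WT MII replicate 2, 0.205% of 2924 genes were called and 0 of 6 of these, with values of 1.46 ± 0.86 for Izumo1r, 0.15 ± 0.49 for Astl, 0.27 ± 0.57 for Itpr1 and 0.02 ± 0.59 for Atp2a2. Cd81 then stood at -2.17 ± 1.05, with an unadjusted p of 0.0398 and an adjusted p of 0.89. Izumo1r was higher in each of the 3 Nat10-ZcKO MII libraries, at 68.9 to 177 CPM, than in WT MII replicate 1 at 37.1 CPM, on 11 to 26 counts against 5. When WT MII replicate 1 was left out in place of replicate 2, Izumo1r, Astl and Itpr1 were called higher in Nat10-ZcKO, with log2 differences of 6.87, 10.1 and 7.86 against a library of 4815 counts in which all 3 were at 0, and 1451 genes were called in all.

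Between genotypes at GV, 0 of 1765 genes (0%) and 0 of the 7 of the 9 genes tested were called by edgeR. Unadjusted p-values were under 0.05 for 93 genes, Atp2a2 among them, and DESeq2 called 6 genes and none of the 9. Izumo1r had a log2 difference, Nat10-ZcKO against WT, of -0.92 ± 0.98, Astl of -0.93 ± 1.41, Cd9 of -0.53 ± 0.83 and Itpr1 of -0.64 ± 0.59. Atp2a2 had 1.85 ± 0.74 (unadjusted p = 0.0309, adjusted p = 0.91), Cd81 0.88 ± 0.77 and Camk2g 0.33 ± 0.79. Izumo1r and Itpr1 were lower in all 3 Nat10-ZcKO GV libraries than in any WT GV library, by a narrow margin for Izumo1r, with 574 CPM in Nat10-ZcKO GV replicate 3 and 605 CPM in WT GV replicate 1. The share of all genes that were apart in this way was not counted.

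In Nat10-ZcKO GV replicate 1, Izumo1r, Cd9, Astl, Trpm7 and Cacna1h were at 0, while Cd81 had 7, Itpr1 15, Atp2a2 18 and Camk2g 3 counts. In that library 9 of the 12 oocyte markers were at 0 and the 16 adipocyte markers took 1.58%. The part of this make-up in the counts of the 9 genes was not tested. Without replicates 1 and 2 the difference was -0.066 ± 0.30 for Izumo1r (adjusted p = 0.96), -0.31 ± 0.32 for Itpr1 (adjusted p = 0.73) and 0.20 ± 0.42 for Atp2a2, and Cd9 turned to 0.48 ± 0.35, Astl to 0.53 ± 0.25, Cd81 to -1.14 ± 0.65 and Camk2g to -1.27 ± 0.62. None of the 9 was then called, with the lowest adjusted p at 0.32, beside 2.01% of 3879 genes. Without Nat10-ZcKO GV replicate 3, which leaves the 2 libraries with few oocyte marker counts, Atp2a2 was called higher, at 2.07 (adjusted p = 0.033).

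Whether the change from GV to MII differed between genotypes was tested by the interaction over all 11 libraries. None of the 7 of the 9 genes tested was called, by edgeR or DESeq2, and none had an unadjusted p under 0.05, beside 0.802% of 3863 genes called. The difference, the log2 change in Nat10-ZcKO minus that in WT, was 3.37 ± 2.004 for Izumo1r, 2.23 ± 1.83 for Itpr1, 2.18 ± 2.35 for Astl and 0.96 ± 1.61 for Cd9, and it was 1.04 at the median of all genes. Without the libraries that stand apart, 0 of 4029 genes were called (288 had an unadjusted p under 0.05), and the values were 1.58 ± 0.81 for Izumo1r, 0.66 ± 0.62 for Itpr1, -0.31 ± 0.55 for Astl and -0.90 ± 0.89 for Cd9.

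By Pearson's r of log2(CPM + 10) over the 11 libraries, among 2197 genes with at least 100 counts, Wfdc3 (r = 0.995), AU015836 (0.995) and Pramef12 (0.991) were most like Astl. Cltb (0.993), Zp1 (0.990) and Zp2 (0.989) were most like Izumo1r, and Cltc (0.988), Ywhag (0.984) and Copa (0.984) most like Itpr1. Zp1 and Zp2 encode zona pellucida proteins, ZP2 being the one that ovastacin cleaves. The points share depth and the make-up of their libraries. Over the 8 libraries that do not stand apart the 3 genes most like each were others, Skp1a, Nlrp5 and Oas1e for Astl, Cd177, Arl2 and Cct2 for Izumo1r, and Pabpc1l, Top2a and Plxnb2 for Itpr1, so that the order rests on the 3 libraries.

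The pull-down asked which mRNAs carry ac4C, by comparing fragments bound by an anti-ac4C antibody with those bound by IgG. With 1 library of each, the ratio of CPM, with an exact 95% interval for counting error only, has no replicate check. The libraries held 970997 and 116232 counts on genes. Trpm7 had the highest ratio of the 9, 4.35 (1.45 to 21.4), on 109 counts against 3, and Camk2g followed with 2.65 (1.64 to 4.61), on 377 against 17. These 2 of 9 were above 2, the threshold that the study uses, where 43.9% of the 8752 genes with at least 10 counts were above it and the median ratio was 1.56.

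Itpr1 with 1.49 (0.993 to 2.34), Atp2a2 with 1.33 (1.04 to 1.73), Cd9 with 1.18 (0.543 to 3.04) and Izumo1r with 1.082 (0.731 to 1.66) had intervals that hold the median of all genes. So did Cd81 with 0.658 (0.144 to 6.11), on 11 counts against 2. Cacna1h at 0.402 (0.261 to 0.637) and Astl at 0.342 (0.301 to 0.390), on 909 counts against 318, were below 0.5, as were 17.8% of all genes. Astl, which ranked highest by footprints in WT GV, thus had the lowest ratio of the 9. With fragments on no feature added to the library sizes, which were 46.7% in the IgG and 17.1% in the anti-ac4C library, 4 of 9 were above 2, beside 55.4% of the 8752 genes, with Itpr1 at 2.32 and Atp2a2 at 2.07 beside Trpm7 and Camk2g, and Astl was at 0.531.

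**Figure D5:**
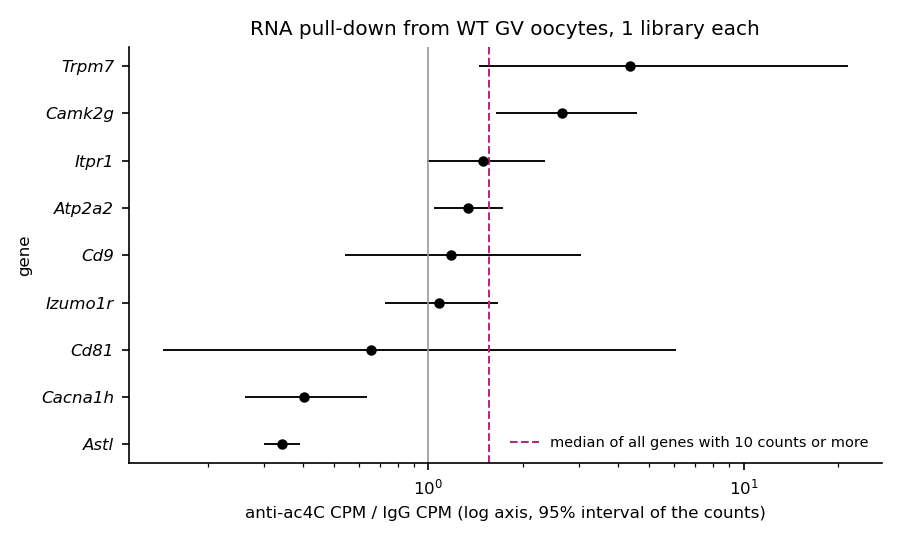
Ratio of anti-ac4C CPM to IgG CPM for the 9 genes in WT GV oocytes (log axis), with exact 95% intervals of the counts; the dashed line is the median of 8752 genes, 1.56. Trpm7 and Camk2g lie above 2, and Cacna1h and Astl below 0.5 with intervals that end at 0.637 and 0.390.

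Set against the IgG library as a rough gauge of RNA, the pooled WT GV footprints (CPM over CPM) were 4.57 for Cd81, 3.89 for Cd9, 2.96 for Izumo1r and 2.27 for Itpr1, 1.34 for Trpm7 and 1.12 for Astl. They were 0.643 for Camk2g, 0.204 for Atp2a2 and 0.183 for Cacna1h. This ratio is no translational efficiency, since footprints were counted on the CDS and fragments on genes, in different assays, and Cd81 rests on 2 and Trpm7 on 3 IgG counts. The order differs when the anti-ac4C library is used in its place, with 6.95 for Cd81, 3.29 for Cd9, 3.27 for Astl, 2.74 for Izumo1r, 1.52 for Itpr1 and 0.308 for Trpm7.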

How the data were processed

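Ribo-seq and pull-down libraries were made by end repair, poly(A) tailing, template switching and PCR, with short inserts selected on a gel for Ribo-seq. The authors deposited whole-number counts per gene, not normalized and not pooled, on the CDS for Ribo-seq and on protein-coding genes for the pull-down. The submitters' processing notes name cutadapt, STAR, HTSeq and mm10. Versions, strand of counting, rRNA removal and handling of PCR duplicates are not given in the sources used here. Without strand, reads of annotated loci overlapping the CDS of Cd9, Cd81, Itpr1 and Atp2a2 cannot be told apart from theirs. The pull-down files also hold summary rows (fragments on no feature, ambiguous), which are not genes and entered no library size.

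The 9 genes and all lists were chosen with earlier results of these data known. Groups are those of the labels. Identifiers were matched to GENCODE M21 (GRCm38), 22399 of 22442 with a symbol. CPM are counts over library totals, and TPM use the union of CDS segments (22359 genes). Differences were tested with edgeR 4.0.16 in R 4.3.3 (filterByExpr, TMM, glmQLFit, glmQLFTest, prior count 0.125) over all genes that passed the filter, with Benjamini-Hochberg adjustment and a threshold of 0.05. Each fit held the libraries of both groups compared, and the interaction all 11. The SE is the log2 change over the square root of F. Alternatives were DESeq2 1.42.0, library size only, every gene with a count, each replicate left out, the replicate number as a block, one fit of all libraries, and leaving out the 3 libraries that stand apart. The steps were tested on simulated data. Named genes were the 9, every further pathway gene called in a comparison, and the 3 genes most like each of the 3 with most counts. Exact intervals (95%) cover counting error only. Python 3.11.15, numpy 2.4.6, scipy 1.17.1 and pandas 2.3.3 were used.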

Additional observations from a re-analysis of the deposited data

Results flagged for a closer look

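For Izumo1r and Itpr1, each Nat10-ZcKO library was below every WT library at GV and above every WT library at MII, in opposite directions at the 2 stages. The direct test of that difference, the interaction in edgeR, gave 3.37 for Izumo1r (adjusted p = 0.79) and 2.23 for Itpr1 (adjusted p = 0.79), so it did not pass. At MII the order rests on WT MII replicate 1 with 5 counts of Izumo1r and 23 of Itpr1, and on replicate 2, where a count of 0 allows up to 623 CPM. At GV it rests on Nat10-ZcKO replicates 1 and 2, which hold few oocyte marker counts, and without them the log2 difference was -0.066 for Izumo1r and -0.31 for Itpr1. How many of all genes show such an order was not counted, and only 523 genes had a count in WT MII replicate 2. Groups of 3 or fewer libraries were not searched for single libraries that deviate.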

How the results depend on the processing

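Depth is the main limit: 8 of the 9 genes were at 0 in WT MII replicate 2, and values of Cd81, Trpm7, Cacna1h and Camk2g rest on few counts. Numbers of genes called moved widely with the processing, and the cause was not tested. At MII, 4 genes were called between genotypes, 15 by DESeq2, 44 with library size only, 19 in one fit of all 11 libraries, 0 with every gene with a count, and 0 to 1451 with 1 library left out. At GV, 0 were called, and 6, 41 (every gene with a count), 23 (one fit) and 78 (without the libraries that stand apart), and 0 to 380 with 1 library left out. In the stages in WT, 6 were called, and 891 by DESeq2, 997 with library size only, 0 with every gene with a count, 60 in one fit, 1463 without WT MII replicate 2, and 37 to 1902 with 1 left out. In Nat10-ZcKO, 368 were called, and 789 by DESeq2, 1445 without the libraries that stand apart, and 0 to 780 with 1 left out. For the interaction, 31 were called, and 50 by DESeq2, 48 with library size only, 10 with every gene with a count, 0 without the libraries that stand apart, and 0 to 1209 with 1 left out. The highest of these came without WT MII replicate 1 or Nat10-ZcKO GV replicate 3.

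Of the 9 genes, the stages in WT gave 0 calls over all libraries, 4 by DESeq2 and 3 with library size only. Izumo1r and Cd9, kept by the filter through GV libraries only, were among both the 4 and the 3. With 1 WT GV library left out there were 0. In Nat10-ZcKO there were 0, and 4 without the libraries that stand apart (Cd9 and Trpm7 among them, kept by the filter through 1 GV library), and 0 to 2 with 1 left out. Between genotypes there were 0 to 3 at MII and 0 to 1 at GV with 1 left out, and for the interaction 0 to 2.

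Samples with the same replicate number did not deviate together in every pair (r between -0.0476 and 0.141 over genes), so the numbers were not taken as pairs. With the replicate block, 0 genes were called between genotypes at MII, 0 in the stages in WT, 194 in those in Nat10-ZcKO and 8 for the interaction, and the log2 changes of Cd81 and Atp2a2 in WT were -0.24 and -0.28 and that of Astl in Nat10-ZcKO 1.30.

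Values of the 9 genes that changed sign were none of them called over all libraries. In the stages in WT, Cd81 stood at -0.45 by DESeq2, -0.39 with every gene with a count, -0.31 in one fit and -6.57 to 0.94 with 1 library left out, and Atp2a2 at -0.33, -0.38, -0.27 and -2.44 to 1.02. In Nat10-ZcKO, Itpr1 stood at 0.0595 with every gene with a count and -0.86 to 0.17 with 1 left out, Astl at -1.53 to 2.84 with 1 left out, and Atp2a2 and Camk2g at 0.18 and 0.11 without the libraries that stand apart. Between genotypes at MII, Atp2a2 stood at -0.087 with library size only and -0.024 to 2.35 with 1 left out. At GV, Cd9, Cd81, Astl and Camk2g stood at 0.48, -1.14, 0.53 and -1.27 without the libraries that stand apart, Camk2g at -0.25 with every gene with a count, -0.085 in one fit and -0.995 to 0.73 with 1 left out, and Cd81 at -0.21 to 1.34. For the interaction, Cd9 and Astl stood at -0.90 and -0.31 without the libraries that stand apart, Atp2a2 at 0.10 with every gene with a count and -1.003 to 2.40 with 1 left out, Camk2g at -0.029 with library size only and -0.21 to 6.01 with 1 left out, and Cd81 at -3.18 to 4.95.

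By TPM the share of the 9 genes in Nat10-ZcKO MII was 0.146% in place of 0.167%, in Nat10-ZcKO GV replicate 1 0.0614% in place of 0.102%, and in WT MII replicate 2 0.00982% in place of 0.0208%. All 9 pull-down ratios were above 2 without scaling, and 4 with fragments on no feature included.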
